A study of Mus musculus with 2 samples.

Results

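The array names miR-1937 and miR-720 stand for small RNAs that resemble pieces of transfer RNA (tRNA). They were followed here in cultured myeloid-derived suppressor cells (MDSCs), a class of immature myeloid cells known for dampening T cell responses. All names on the array that start with mmu-miR-1937 or equal mmu-miR-720 were taken, which gave 3 of 1080: mmu-miR-1937b_v16.0, mmu-miR-1937c_v16.0 and mmu-miR-720. The pair miR-1937b_v16.0 and miR-720 had been chosen by their high summed signal on these same arrays, so their levels, orders and shares are descriptions. The name miR-1937c_v16.0 came in by its spelling. MDSCs were grown from bone marrow of C57BL/6 mice for 4 days in medium with 5% serum, either with 40 ng/ml GM-CSF plus 40 ng/ml IL-6 or with 40 ng/ml GM-CSF only. Both cultures thus held GM-CSF, which drives the growth of myeloid cells, and IL-6 is an inflammatory cytokine. Each culture gave 1 single-colour Agilent array, so no difference between the cultures has a replicate check and no p-value is given. The number of mice behind each culture and any sorting of the cells are not given in the sources used here.

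Transfer RNAs carry amino acids to the ribosome and are among the most abundant RNAs of a cell. Cells cut them into shorter fragments, some of about the length of a miRNA, and small-RNA sequencing reads of such fragments have been entered in miRNA catalogues by mistake. Both miR-720 and the miR-1937 names were later withdrawn from miRBase, the miRNA catalogue, as probable fragments of tRNA. A microarray probe reports whatever labelled RNA binds it, so signal under these names can come from a fragment, from a precursor or from the intact tRNA, and these sources cannot be told apart here. The lineage of the cultures was looked at through miRNA markers. None of these is particular to MDSCs, so the MDSC label itself was not tested. The myeloid miR-223-3p and both arms of miR-142, a miRNA of all blood cells, were detected on both arrays, while miR-143-3p and miR-145-5p of stromal cells and the erythroid miR-144-3p were not detected on either. The lymphoid miR-150-5p was detected at a signal of 54.2 with GM-CSF plus IL-6 and 62.6 with GM-CSF only, the erythroid miR-451 at 8.10 and 10.4, and the epithelial miR-200c-3p at 12.4 and 14.99 and miR-141-3p at 8.51 and 7.80, and the part of other cells in the tRNA-like signals was not tested.

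Of the 3 names, 0 matched the RefSeq table of mature sequences. Of the 6 names around miR-720 in the order of mean signal, 3 above and 3 below it, 4 matched and are shown, because they place its signal among known sequences. The others are miR-466i-5p and miR-21-5p. These are RefSeq mature sequences on GRCm38.p6, 5′ to 3′, with the seed (bases 2 to 8) in capitals. They lie at chr5:64970328-64970350 on the plus strand (miR-574-5p), chrX:96242884-96242905 on the plus strand (miR-223-3p), chr5:82798964-82798986 on the minus strand (miR-1187) and chr17:25831406-25831427 on the minus strand (miR-3082-5p).
miR-574-5p: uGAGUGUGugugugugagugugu
miR-223-3p: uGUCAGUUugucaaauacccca
miR-1187: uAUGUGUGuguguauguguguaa
miR-3082-5p: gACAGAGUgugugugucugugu
All 4 have different seeds. Of the 12 brightest names by mean signal, 7 matched the table by name, and 4 of these 7 hold the letters UGUGUG, read on the RNA strand alone, as do 28 of 1679 mature names in the table (1.67%). The tRNA-like names could not be included in that count. The 1679 mature names are not limited to names on the array, so these shares are over unlike sets, and their difference was not tested.

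The name miR-1937b_v16.0 was the brightest of all miRNA names on both arrays. Its summed probe signal was 40289 ± 254 with GM-CSF plus IL-6 and 41404 ± 263 with GM-CSF only, where the level of a name is the sum of the scanner's total signals over its probes and the error is the standard error over replicate spots, in arbitrary intensity units. That was 29.6% of all detected signal with GM-CSF plus IL-6 and 29.6% with GM-CSF only, over 308 and 301 detected names. The next name, miR-466i-5p, held 13.2% with GM-CSF plus IL-6 and 12.4% with GM-CSF only.

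The name miR-720 had a summed signal of 6466 ± 27.02 with GM-CSF plus IL-6 and 6491 ± 42.9 with GM-CSF only. It was 4th of the detected names with GM-CSF plus IL-6 and 5th with GM-CSF only, because miR-223-3p, a miRNA of granulocytes and their precursors, lay below it with IL-6 (6239) and above it without (6807). The share of miR-720 was 4.75% with GM-CSF plus IL-6 and 4.63% with GM-CSF only. With GM-CSF only its signal was nearly that of miR-21-5p, a widely expressed miRNA (6488).

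The name miR-1937c_v16.0 was far dimmer, with a summed signal of 776 ± 7.11 with GM-CSF plus IL-6 and 769 ± 8.41 with GM-CSF only. It was 19th of the detected names with GM-CSF plus IL-6 and 21st with GM-CSF only, and 289 and 280 detected names were dimmer. Its share was 0.570% with GM-CSF plus IL-6 and 0.549% with GM-CSF only. By mean signal over both arrays the names just above it were miR-5097, miR-20a-5p and miR-16-5p, and those just below it were let-7a-5p, miR-32-3p and miR-468-3p. Probes differ in how strongly they bind, so an order of signals is not an order of RNA amounts, and the miR-1937b_v16.0 and miR-1937c_v16.0 signals do not give the ratio of 2 RNAs.

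**Figure D1:**
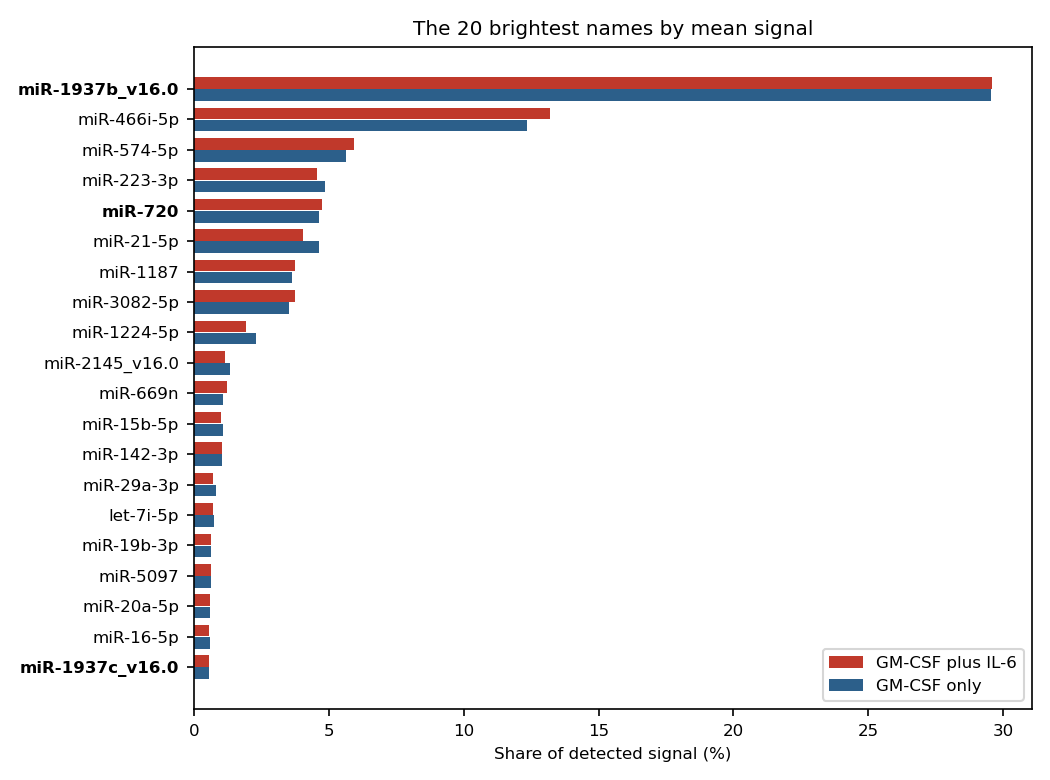
Share of all detected signal, in percent, held by the 20 brightest names by mean signal, with GM-CSF plus IL-6 (red, upper bar) and GM-CSF only (blue, lower bar), 1 array each; the 3 tRNA-like names are in bold. The name miR-1937b_v16.0 holds 29.6% on each array, miR-720 holds 4.75% and 4.63%, and miR-1937c_v16.0 closes the list at 0.570% and 0.549%.

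Together the 3 names held 34.9% of detected signal with GM-CSF plus IL-6 and 34.7% with GM-CSF only. On each array 4 names were enough to pass 50% of the signal. The dimmest 154 of the 308 detected names held 1.96% with GM-CSF plus IL-6, and the dimmest 150 of 301 held 1.87% with GM-CSF only. Shares of every other name therefore depend on whether the tRNA-like names are counted. With them left out, miR-223-3p took 7.04% instead of 4.58% of the signal with GM-CSF plus IL-6, and 7.45% instead of 4.86% with GM-CSF only. For miR-21-5p the shares became 6.21% instead of 4.04% with GM-CSF plus IL-6, and 7.10% instead of 4.63% with GM-CSF only.

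Each name was measured by 2 probes with 20 spots each. The spots of probe A_54_P00004715 of miR-1937b_v16.0 had a lowest, median and highest intensity of 71986, 78790 and 83557 with GM-CSF plus IL-6, against 73579, 80871 and 82653 with GM-CSF only, leaving out spots that the scanner software called outliers. For A_54_P00004714 of the same name they were 26707, 27893 and 28912 with GM-CSF plus IL-6, against 27148, 27964 and 28595 with GM-CSF only. The spots of both probes overlapped between the arrays over nearly their whole ranges.

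Of the miR-720 probes, A_54_P2037 ran over 12816, 13417 and 13898 with GM-CSF plus IL-6, against 12016, 13442 and 13949 with GM-CSF only. A_54_P2036 ran over 3235, 3669 and 3759 with GM-CSF plus IL-6, against 3391, 3547 and 3652 with GM-CSF only. Here too the arrays overlapped, although the median of A_54_P2036 with GM-CSF plus IL-6 lay above the highest spot with GM-CSF only.

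The miR-1937c_v16.0 probe A_54_P00004716 ran over 808, 960 and 1024 with GM-CSF plus IL-6, against 807, 950 and 1036 with GM-CSF only. A_54_P00004717 ran over 1010, 1098 and 1175 with GM-CSF plus IL-6, against 959, 1075 and 1165 with GM-CSF only. Both probes overlapped between the arrays.

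**Figure D2:**
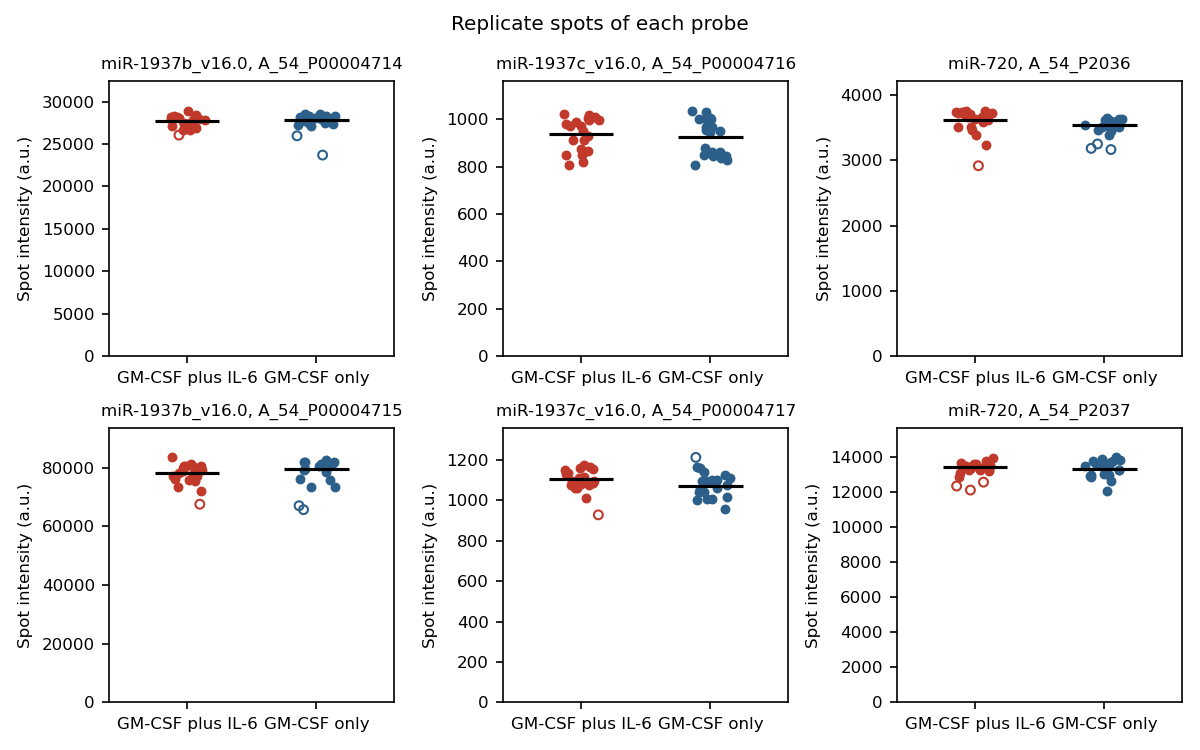
Spot intensity in arbitrary units for the 20 replicate spots of each of the 6 probes, with GM-CSF plus IL-6 (red, left) and GM-CSF only (blue, right); filled points were kept, open circles are spots called outliers, and lines are means of kept spots. In every panel the clouds of the arrays overlap, and nearly all open circles lie below the filled points.

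The coefficient of variation of kept spots was 2.19% and 3.64% for the miR-1937b_v16.0 probes with GM-CSF plus IL-6, against 1.62% and 3.59% with GM-CSF only. For miR-720 it was 3.94% and 1.94% with GM-CSF plus IL-6, against 2.09% and 3.69% with GM-CSF only. Spots of miR-1937c_v16.0 had 7.58% and 3.90% with GM-CSF plus IL-6, against 8.37% and 5.41% with GM-CSF only. The median over the 203 probes of detected names with a mean over 100 was 5.04% with GM-CSF plus IL-6, and it was 4.85% over 203 such probes with GM-CSF only.

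Outlier spots made up 7 of 120 spots of the 3 names with GM-CSF plus IL-6 (5.83%, against 3.76% of all miRNA spots) and 8 of 120 with GM-CSF only (6.67%, against 4.27%). All 7 with GM-CSF plus IL-6 and 7 of the 8 with GM-CSF only were dimmer than every kept spot of their probe. The totals leave these spots out. Both arrays have the same layout, and the 20 positions of a probe deviated together for miR-1937c_v16.0, with a Pearson r of 0.61 and 0.51 for its probes, while r ran from -0.29 to 0.38 for the other 4 probes. These correlations over positions on a slide, and those with the grid column below, include the outlier spots. Of the 6 probes only A_54_P00004716 of miR-1937c_v16.0 had 0 outlier spots on both arrays. The values are given as descriptions, and r without the outlier spots was not computed. The correlation of spot intensity with the column of the grid was 0.43 and 0.66 for the miR-1937c_v16.0 probes with GM-CSF plus IL-6 and 0.60 and 0.74 with GM-CSF only. For the miR-720 probes it was 0.13 and 0.20 with GM-CSF plus IL-6 and 0.35 and 0.49 with GM-CSF only. For the miR-1937b_v16.0 probes it was -0.23 and -0.06 with GM-CSF plus IL-6 and 0.14 and 0.18 with GM-CSF only.

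The brightness of miR-1937b_v16.0 did not reach the limit of the scanner. Its brightest spot stood at 83620 with GM-CSF plus IL-6 and 82717 with GM-CSF only, which is 10.7% and 10.6% of the saturation value in the file headers, and 0 spots of miRNA names were saturated. All 120 spots of the 3 names were well above background on each array. The local background around miR-1937b_v16.0 spots had a median of 38.5 with GM-CSF plus IL-6, against 39 for all spots, and 42 with GM-CSF only, against 41. Spots of undetected names that touched a miR-1937b_v16.0 spot (71 on each array) had a median signal of -0.97 with GM-CSF plus IL-6, against -0.47 for the other 30449. With GM-CSF only the medians were 0.74 and -0.04. All of these lie inside the middle range of the other spots, whose quartiles were -3.23 and 2.68 with GM-CSF plus IL-6 and -2.76 and 2.97 with GM-CSF only.

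The comparison the design implies asks how these names differed when IL-6 was added to the culture. As deposited, with no scaling, their signals were almost the same in the cultures. In bulk RNA of a culture, fewer cells of a type and less RNA per cell cannot be told apart. The signal of miR-1937b_v16.0 with GM-CSF plus IL-6 differed by -2.69% from that with GM-CSF only, a log2 ratio of -0.039 ± 0.013 (spot standard error). For miR-720 the log2 ratio was -0.0055 ± 0.011 and for miR-1937c_v16.0 it was 0.013 ± 0.021, both within 1 spot standard error of 0. The deposited errors are larger: they are set by a fixed multiplicative error of 10% per probe in the scanner software, and they give a log2 ratio an error of 0.16, 0.17 and 0.15 for the 3 names in the same order. All 3 ratios lie well within them.

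The unscaled differences include a factor that is the same for a whole array. For the 33 and 35 probes with a total over 500, the total divided by the mean of the kept spots and by the number of spots was a constant, 0.01899 with GM-CSF plus IL-6 and 0.01926 with GM-CSF only. These constants stand in the same ratio as the effective feature size in the file headers, 0.806 and 0.818, and shift every log2 ratio of totals by -0.020. From the spot means themselves the log2 ratios are -0.019 for miR-1937b_v16.0, 0.015 for miR-720 and 0.034 for miR-1937c_v16.0, so that the sign of miR-720 turns. Any uniform scaling removes this factor.

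Each array was then divided by its 75th percentile over the 292 names detected on both, 160 with GM-CSF plus IL-6 and 182 with GM-CSF only. The log2 ratios became 0.14 ± 0.013 for miR-1937b_v16.0, 0.18 ± 0.011 for miR-720 and 0.20 ± 0.021 for miR-1937c_v16.0 (spot standard errors), or 1.10-fold, 1.13-fold and 1.15-fold. The median of all 292 names was 0.12 on the same scale. Relative to that median the 3 names stood at 0.025, 0.059 and 0.078, and all 6 of their probes lay above the median, from 0.021 to 0.090. The middle 50% of the 292 names ran from -0.095 to 0.16, so the 3 names lay near the centre: 34, 78 and 103 of the 292 names were closer to the median than miR-1937b_v16.0, miR-720 and miR-1937c_v16.0.

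Of the 3 names, 0 were at least 2-fold or 1.5-fold apart between the cultures. Among all 292 names, 1.37% were at least 2-fold higher with GM-CSF plus IL-6 and 0% at least 2-fold lower, and 5.48% were at least 1.5-fold higher and 0% at least 1.5-fold lower. Relative to the median of all names, 1.03% were at least 2-fold higher and 3.42% at least 1.5-fold higher with GM-CSF plus IL-6, again with 0 of the 3 among them. The 1.5-fold shares before this centring stood for 16 names higher and 0 lower. Scaling by the median gave 8 higher and 1 lower, and the 75th percentile over all 1080 names gave 7 higher and 2 lower. With so few names past either fold, the absence of the 3 from them is no result about the 3. On the relative scale other bright names ran from -0.21 for miR-1224-5p and -0.17 for miR-21-5p to 0.12 for miR-466i-5p and 0.21 for miR-669n. Some of them lay as near the median as the 3 names, such as miR-19b-3p (0.0011), miR-142-3p (0.0020) and miR-20a-5p (-0.016). Closeness to the median was thus not particular to the tRNA-like names. The median over the 20 brightest names was 0.0016.

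**Figure D3:**
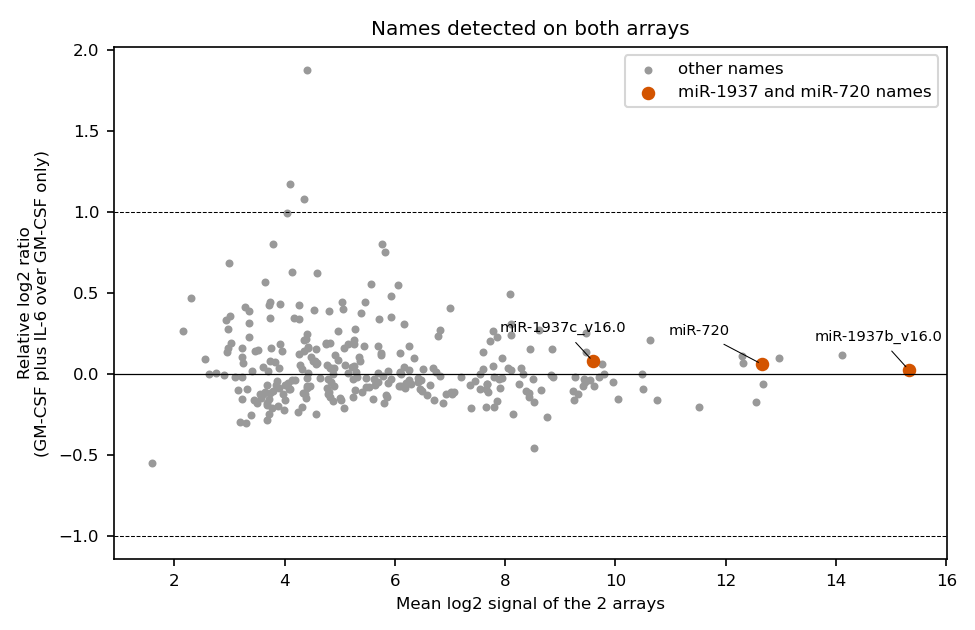
Relative log2 ratio (the IL-6 culture over the culture with GM-CSF only, minus the median of all) against the mean log2 signal of both arrays for the 292 names detected on both; the 3 tRNA-like names are orange and dashed lines mark 2-fold. The orange points lie at 0.025, 0.059 and 0.078, at the bright end of the cloud and close to its centre line.

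How a bright name acts on scaling depends on the scaling. Leaving out the 3 names lowered the total detected signal by 34.9% to 88637 with GM-CSF plus IL-6 and by 34.7% to 91421 with GM-CSF only. Because both totals dropped alike, the log2 ratio of the 2 factors moved by only -0.0037. Scaled by total signal, the log2 ratio of miR-1937b_v16.0 was 0.0015 with all names counted, 0.0022 when it was itself left out of the total and 0.0053 when all 3 were left out. For miR-720 these values were 0.035, 0.036 and 0.039, and for miR-1937c_v16.0 they were 0.054, 0.055 and 0.058. The number of names at least 1.5-fold higher with GM-CSF plus IL-6 was 10 under each of these 3 totals.

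Each 75th percentile dropped less than the total, by 10.5% with GM-CSF plus IL-6 and by 16.7% with GM-CSF only. These drops were less alike than those of the totals, so the log2 ratio of the factors moved more. Without the 3 names the percentile was 143 with GM-CSF plus IL-6, against 160 with them, and 151 with GM-CSF only, against 182. The log2 ratio of the factors moved by 0.10, the median log2 ratio of all names became 0.015 instead of 0.12, and 10 instead of 16 names were at least 1.5-fold higher with GM-CSF plus IL-6. The ratios of miR-1937b_v16.0, miR-720 and miR-1937c_v16.0 themselves became 0.040, 0.074 and 0.093. A percentile depends on places in the order alone, so leaving out any 3 names that lie above it on both arrays has the same effect. Leaving out the next 3 brightest names in their stead therefore had to give the same log2 ratio of the factors, -0.079, and is no separate check.

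The names near the 75th percentile were thinly spaced. With GM-CSF only the signals there ran from 143 (miR-26b-5p) and 151 (miR-2861) to 173 (miR-3102-5p), 181 (miR-195-3p) and 184 (miR-34a-5p), and with GM-CSF plus IL-6 from 143 (miR-669k-5p) and 152 (miR-34a-5p) to 157 (miR-3102-5p) and 168 (miR-195-3p). Over the percentiles 70 to 80, chosen after the data were seen, the log2 ratio of the factors ran from -0.18 to 0.0055, and its lowest value was that of the 75th. The log2 ratio of miR-1937b_v16.0 ran from -0.045 to 0.14 over these percentiles, that of miR-720 from -0.011 to 0.18 and that of miR-1937c_v16.0 from 0.0079 to 0.20, each highest at the 75th. The number of names at least 1.5-fold higher with GM-CSF plus IL-6 ran from 8 to 16, with 16 at the 75th alone.

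**Figure D4:**
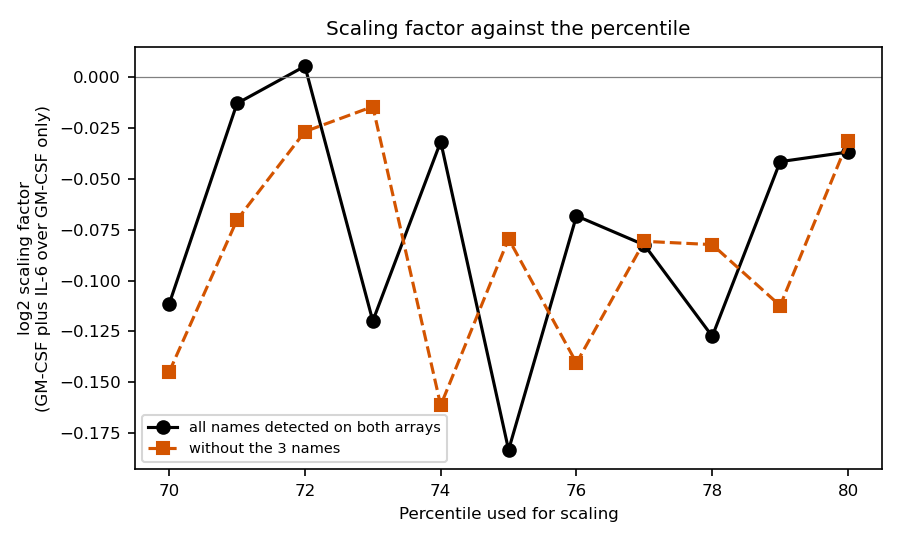
Log2 ratio of the scaling factors (the IL-6 culture over the culture with GM-CSF only) for percentiles 70 to 80 over the 292 names (black circles) and without the 3 tRNA-like names (orange squares). The black line is lowest at the 75th percentile (-0.18) and highest at the 72nd (0.0055), and the orange line stands at -0.079 at the 75th.

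A scaling that does not use the miRNA names gave ratios near 0. The detected control names starting dmr, 4 in all, had nearly equal geometric means, 4257 with GM-CSF plus IL-6 and 4224 with GM-CSF only. Scaled by them, the log2 ratio was -0.051 for miR-1937b_v16.0, -0.017 for miR-720 and 0.0020 for miR-1937c_v16.0, and the median of all names was -0.076. The direction of each name on an absolute scale therefore changed with the scaling, while uniform scalings leave the distance from the median of all names as it is.

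**Figure D5:**
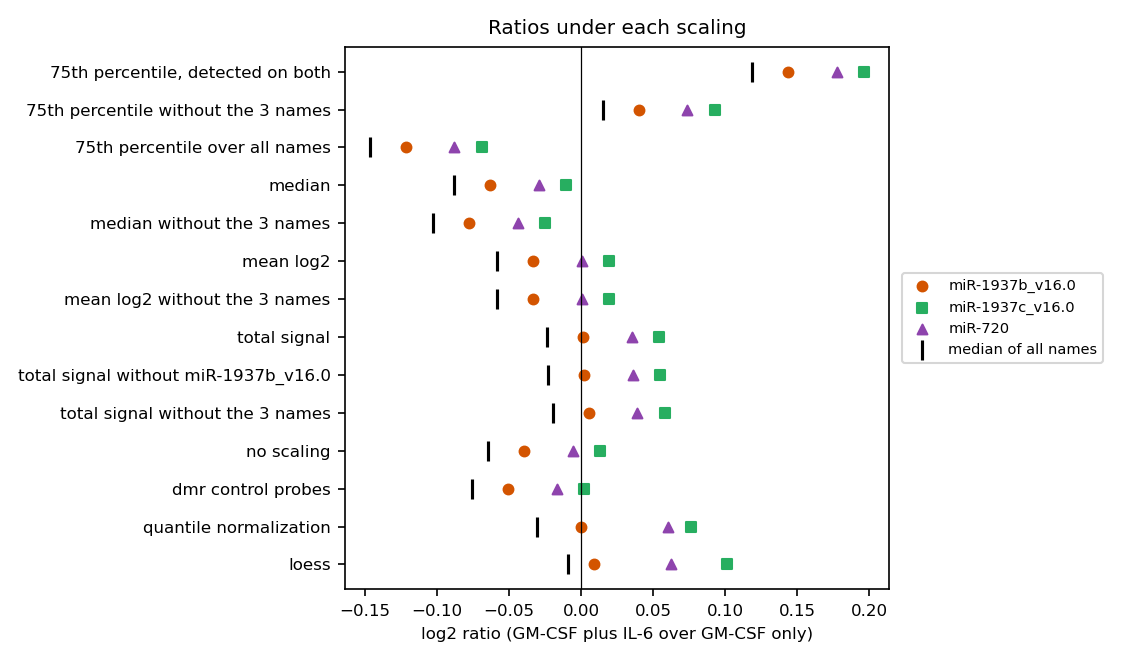
Log2 ratios (the IL-6 culture over the culture with GM-CSF only) of miR-1937b_v16.0 (orange circles), miR-1937c_v16.0 (green squares) and miR-720 (purple triangles) under 14 scalings, with the median of all names as a black bar. The 3 names lie to the right of the median in every row. Uniform scalings keep that distance the same, so only the quantile and loess rows could differ in it. The whole group shifts between the lowest values, with the 75th percentile over all names, and the highest, with the 75th percentile over names detected on both arrays.

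The authors' deposited table carries the 3 names at the same distances. Its log2 values for miR-1937b_v16.0 were 9.02 with GM-CSF plus IL-6 and 9.06 with GM-CSF only, those for miR-720 were 6.38 and 6.39, and those for miR-1937c_v16.0 were 3.32 and 3.31. Each equals the log2 of the summed signal minus an offset of 6.28 on both arrays, whose origin is not known. The medians of the deposited columns were -9.60 and -9.60, the floor of undetected names. The table holds 0 miRNA names above miR-1937b_v16.0 and 3 control names above it. In the scanner files the gene totals of 75 detected names with GM-CSF plus IL-6 and 71 with GM-CSF only exceeded the sum of their detected probes, but 0 of the 3 tRNA-like names did, and neither did miR-1939_v16.0 and miR-721, the detected names that follow miR-1937c_v16.0 and miR-720.

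Names put on a list as having another noncoding RNA as known or reported source were set beside the tRNA-like ones. The list states the source only for miR-712, and the sources of the others, miR-1306 included, were not checked. Of 11 name starts, 6 are on the array with 9 names, of which 6 were detected on both arrays, 1 with GM-CSF only (miR-664-3p, 9.62 undetected with GM-CSF plus IL-6 and 11.1 with GM-CSF only) and 2 on neither (miR-712-3p and miR-664-5p). The brightest was miR-2145_v16.0, at 1590 with GM-CSF plus IL-6 and 1857 with GM-CSF only, a relative log2 ratio of -0.16. The others were miR-1306-3p (82.2 with GM-CSF plus IL-6 and 88.97 with GM-CSF only, -0.051), miR-1839-3p (58.99 and 63.1, -0.033), miR-1839-5p (11.8 and 14.7, -0.25) and miR-715_v16.0 (9.37 and 11.7, -0.25). The name miR-712-5p, from a spacer of the ribosomal RNA precursor, stood at 29.6 with GM-CSF plus IL-6 and 30.2 with GM-CSF only (0.037). Thus 1 of the 6 lay above the median of all names and 5 below it, with a median of -0.11, and 0 were at least 2-fold apart, while all 3 tRNA-like names lay above the median, as did 146 of all 292 names.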

How the data were processed

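Both arrays were single-colour Agilent miRNA arrays of Cy3-labelled RNA (0.2 ug), per the labels' protocols, on the same slide. The label protocol names a cRNA amplification kit, which is not a miRNA labelling kit. Whether that kit was used for these arrays is not settled. The authors' scanner files hold intensity values that Agilent Feature Extraction (version 10.7.1.1) produced, per the file headers: spatially detrended, background-subtracted and not scaled between arrays. Pixel counts per spot and the flags in the deposited files come from that software. The authors' deposited table holds log2 values. The small number of arrays limits the precision.

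The level of a name was the sum of the total probe signals over its probes. Arrays were divided by the 75th percentile over names detected on both, and log2 ratios had the IL-6 culture on top. Fold thresholds of 2 and 1.5 replaced tests. Spot errors came from spots without outlier flags and cover spot error only. The named genes were the 3 names and their probes, the names next to them in signal or name order, the brightest names and a list of names taken to come from other noncoding RNAs. Members and lists were chosen with earlier results of these data known. The alternatives were other scalings, background corrections (normexp with an offset of 50 included), summaries and spots, a loess span of 0.7, and a floor of 1 for spot logs. The dmr controls, percentiles 70 to 80 and all settings for miR-1937c_v16.0 were added after seeing the data. Python 3.11.15, numpy 2.4.6, pandas 2.3.3, matplotlib 3.10.9, R 4.3.3 and limma 3.58.1 were used, and the ratio functions were tested on simulated data.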

Additional observations from a re-analysis of the deposited data

How the results depend on the processing

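No paired analysis was possible because each culture has 1 array. A log2 ratio counts as moved when it changed by more than the spot SD of that ratio (0.060 for miR-1937b_v16.0, 0.065 for miR-720 and 0.14 for miR-1937c_v16.0). Of 20 alternatives, 13 moved miR-1937b_v16.0, 13 miR-720 and 9 miR-1937c_v16.0, and 0 brought any of them to 1.5-fold. Under 10 alternatives that are not uniform scalings, the relative log2 ratios ran from 0.0078 to 0.043, from 0.019 to 0.091 and from 0.019 to 0.11 for these names. The lowest value of miR-720 and miR-1937c_v16.0, 0.019, came from normexp with quantile normalization, where equal ranks set the ratio to 0. Their next lowest values were 0.041 and 0.060, with plain background subtraction.

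Values for miR-1937b_v16.0, miR-720 and miR-1937c_v16.0, in that order, were -0.12, -0.088 and -0.069 with the 75th percentile over all names, -0.063, -0.029 and -0.010 with the median, -0.039, -0.0055 and 0.013 with no scaling, and -0.041, -0.0072 and 0.012 in the authors' deposited table. They were -0.051, -0.017 and 0.0020 with the dmr controls, 0.0015, 0.035 and 0.054 with total signal, 0.0022, 0.036 and 0.055 with total signal without miR-1937b_v16.0, and 0.0053, 0.039 and 0.058 with total signal without the 3 names. After normexp with quantile normalization all 3 were 0, since each name then had the same rank on both arrays (1, 5 and 17 of 1080), which sets the ratio to 0. For miR-1937b_v16.0 and miR-720 further values were 0 and 0.060 with quantile normalization, 0.0088 and 0.062 with loess, 0.040 and 0.074 with the 75th percentile without the 3 names, and 0.084 and 0.10 with mean log2 spot signals. The 0 of miR-1937b_v16.0 with quantile normalization is likewise set by its rank, 1 on both arrays. Ratios set to 0 by rank are included in the counts of alternatives that moved a name. Single probes, odd or even spots, outlier spots kept and the other background corrections moved none of the 3 past that SD.

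With gene totals the shares of miR-1937b_v16.0 were 25.8% with GM-CSF plus IL-6 and 26.7% with GM-CSF only, those of miR-720 4.14% and 4.18%, and those of miR-1937c_v16.0 0.497% and 0.496%. The gene totals sum to 156213 with GM-CSF plus IL-6 and 155157 with GM-CSF only, against 136169 and 140085 for the probe sums. Without background correction miR-1937b_v16.0 had 26.9% and 26.9% and miR-720 4.34% and 4.24%, and plain subtraction gave miR-1937b_v16.0 28.6% and 28.6%.

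Of all 292 names, 4 were at least 2-fold higher with GM-CSF plus IL-6. There were 2 with the median, with or without the 3 names, and 0 among names at or above the median level. At least 1.5-fold higher were 16 names, but 10 with the 75th percentile without the 3 names, 10 with the 3 versions of total signal and 10 with loess with or without the 3 names. There were 8 with the median (7 without the 3 names), 8 with the mean log2 with or without them, 8 with quantile normalization and 6 among names at or above the median level. At least 1.5-fold lower were 0 names, but 1 with the median, the mean log2 and loess, each with or without the 3 names. The median of all names, 0.12 in the report, lay between -0.10 and 0.015 under these 11 scalings and was -0.15 with the 75th percentile over all names.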
